A study of Mus musculus with 4 samples.

Results

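Peaks of Sox2 and of 3 HaloTag fusions of Sox2 were located around 7 transcription factor genes of the trophoblast lineage, Tead4, Cdx2, Gata3, Eomes, Tfap2c, Elf5 and Hand1, in D3 mouse embryonic stem cells. The members were named from the known roles of these genes, but with earlier results of these data in hand. They are 7 of 21887 protein-coding genes in the gene table used. A peak was counted for a gene when its centre lay in the mm10 gene body or within 50 kb of it. By this rule 23 peaks of the 4 lists lay at 6 of the 7 genes, and Elf5 had none. ChIP-exo digests immunoprecipitated DNA with an exonuclease up to the crosslinked protein, so that a binding position is narrowed to a few bases.

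There was 1 library for each protein. Halo-Sox2D is a HaloTag fusion that keeps Sox2 residues 1 to 120, Halo-Sox2M is a fusion altered in the HMG box, labelled with M47G, with M51G and with F50, for which the label names no new residue. Halo-Sox2 is the unchanged fusion. These 3 were isolated on HaloLink resin, which binds the HaloTag covalently. Endogenous Sox2 was isolated from D3 cells with an antibody. The labels give no promoter, expression level or clone for the fusions and do not say whether cells with a fusion still made their own Sox2. The Halo-Sox2D list held 13833 peaks, the Halo-Sox2M list 1711, the Halo-Sox2 list 6558 and the endogenous list 7153, with a median width of 11 bp in each. The lists carry no score, height or read number, so that depth is unknown and the absence of a peak is not a measure of absent binding. With 1 library in a group no difference had a replicate check, and the peak lists hold no expression values by which the labelled cell type could be checked.

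Sox2 binds DNA through an HMG box and pairs with Oct4 on composite sites to maintain pluripotency. The trophoblast lineage, which forms the placenta, separates from the pluripotent cells at the blastocyst stage. In the outer cells of the embryo Tead4 with the Hippo effector Yap1 turns on Cdx2 and Gata3, while Eomes, Tfap2c and Elf5 hold trophoblast stem cells in their state and Hand1 drives their differentiation into giant cells. In embryonic stem cells most of these genes are silent or weakly expressed, and Sox2 itself is needed both in the pluripotent cells and in trophoblast stem cells.

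RefSeq promoter windows of GRCm38.p6, whose primary chromosomes share mm10 coordinates, run from 250 bases before to 50 after a transcription start. They were matched for 4 of the 7 members: Cdx2, Eomes, Gata3 and Elf5, the last with 2 starts. No peak of any library touched any of these 5 windows, and 5.57% of all promoter windows in the table were touched by one, so that a lack of peaks there was the common state. The windows were searched on both strands for the core letters of the Sox motif, CATTGT, and for the octamer bound by Oct4, ATGCAAAT (the reverse of the octamer can overlap the Sox letters at CAT). Only these exact letters were searched for, and other forms of either motif were not counted. The octamer occurred in the Cdx2 window and the Sox letters in the window of the first Elf5 start, and the windows of Eomes, Gata3 and the second Elf5 start held neither. Of all 32851 promoter windows in the table, 12.6% held the Sox letters and 1.74% the octamer. The windows with a match are shown because they place these letters where no peak was called, with the match in capitals. Cdx2 is at chr5:147307200-147307499 on the minus strand and Elf5 at chr2:103411848-103412147 on the plus strand, and both are written 5′ to 3′ along the gene.
Cdx2: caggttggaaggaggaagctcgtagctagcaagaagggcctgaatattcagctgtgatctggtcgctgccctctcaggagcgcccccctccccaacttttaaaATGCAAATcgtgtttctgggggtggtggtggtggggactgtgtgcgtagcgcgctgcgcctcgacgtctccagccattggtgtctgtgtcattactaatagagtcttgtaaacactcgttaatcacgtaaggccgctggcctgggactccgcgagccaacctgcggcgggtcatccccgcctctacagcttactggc
Elf5: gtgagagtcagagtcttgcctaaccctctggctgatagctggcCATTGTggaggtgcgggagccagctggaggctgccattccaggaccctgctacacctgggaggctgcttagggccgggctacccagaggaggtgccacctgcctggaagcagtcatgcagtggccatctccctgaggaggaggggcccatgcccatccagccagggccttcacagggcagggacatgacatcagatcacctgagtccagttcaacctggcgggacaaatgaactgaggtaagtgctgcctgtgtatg
The octamer of Cdx2 begins 147 bases before the transcription start, and the Sox letters of Elf5 begin 207 bases before it. The nearest peak to the Cdx2 window was a Halo-Sox2D peak 7.81 kb away, and the nearest to this Elf5 window was a Halo-Sox2D peak 117 kb away.

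Tead4 was the member at which all 4 proteins had peaks, and no 2 of the libraries met there. Tead4 encodes the TEA-domain factor that carries Yap1 to DNA and stands at the head of the trophoblast programme. Its window held 1 Halo-Sox2D peak, 1 Halo-Sox2M peak, 3 Halo-Sox2 peaks and 1 endogenous Sox2 peak (chromosome 6, gene body 128227143 to 128300813). Of all protein-coding genes, 4.53% had 3 or more Halo-Sox2 peaks. Of all protein-coding genes, 1.77% had peaks of all 4 libraries, and 12.4% of those 387 genes had no place shared by centres within 500 bp. The Halo-Sox2D peak at 128281920 to 128281934 and the endogenous Sox2 peak at 128261809 to 128261820 lay inside Tead4. The Halo-Sox2 peaks lay outside the gene, at 128209709, at 128308538 to 128308547 and at 128318577 to 128318585, which is 17.4 kb below, 7.73 kb above and 17.8 kb above it (below and above mean towards lower and higher coordinates). The last of these was nearer to Tulp3, at 2.56 kb.

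The Halo-Sox2M peak at Tead4 was the 1 peak of the HMG-box mutant at any member. It lay at 128186496 to 128186513, 40.6 kb below the gene and inside the annotated pseudogene Gm18609, so that a window of 20 kb leaves Halo-Sox2M with 0 members. Reads from a pseudogene can match its parent gene, and how such reads were handled is not given in the sources used here. Whether this bears on the peak was not tested. Across the members Halo-Sox2M thus had a peak at 1 of 7 genes, where 6.37% of all protein-coding genes had one, and Halo-Sox2 at 2 of 7, where 32.3% had one. The count for Halo-Sox2M is too small to be read against its background. At the other 6 members the nearest Halo-Sox2M peak was 161 kb from Gata3, 366 kb from Hand1, 456 kb from Cdx2, 2034 kb from Tfap2c, 2223 kb from Eomes and 4745 kb from Elf5.

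**Figure D1:**
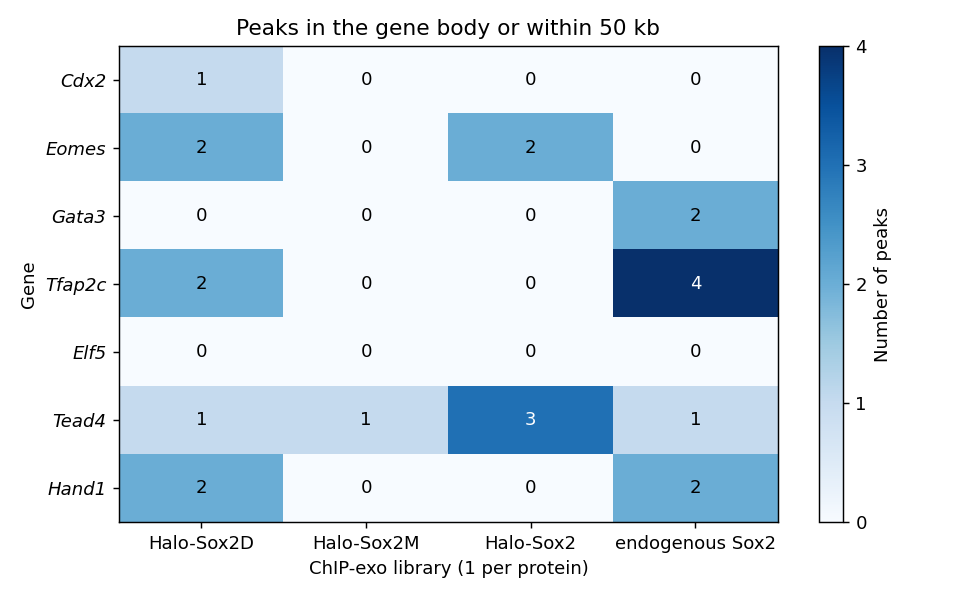
Number of peaks in the gene body or within 50 kb of each member (rows) in each library (columns, 1 library per protein). Tead4 has peaks in all 4 libraries, Elf5 in none, and the largest number is 4, for endogenous Sox2 at Tfap2c.

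Cdx2 and Gata3, the homeobox and zinc finger factors that Tead4 turns on in outer cells, each had peaks of 1 library. At Cdx2 (chromosome 5, 147300900 to 147307249) Halo-Sox2D had 1 peak and Halo-Sox2M, Halo-Sox2 and endogenous Sox2 had 0. The peak at 147299387 to 147299393 lay 1.51 kb below the gene, which is past its 3′ end because Cdx2 is on the minus strand, and 7.86 kb downstream of the start. The nearest Halo-Sox2 peak was 113 kb from Cdx2 and the nearest endogenous Sox2 peak 145 kb. Of all protein-coding genes 22.7% had a peak of Halo-Sox2D alone.

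At Gata3 (chromosome 2, 9857078 to 9887953) the 3 fusions had 0 peaks and endogenous Sox2 had 2. One of these lay at 9883012 to 9883022, inside the longest annotated extent of Gata3 and inside the lncRNA gene 4930412O13Rik, 4.42 kb upstream of the start at 9878600 that the promoter table gives. The other, at 9855980 to 9855992, lay 1.09 kb below the gene, past its 3′ end. A peak of endogenous Sox2 alone was found at 2.88% of all protein-coding genes. The nearest Halo-Sox2D peak was 475 kb from Gata3 and the nearest Halo-Sox2 peak 469 kb.

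Eomes, a T-box factor of trophoblast stem cells and of the primitive streak, held the closest meeting of 2 libraries within the 50 kb limit. Its window (chromosome 9, gene body 118478186 to 118486132) held 2 Halo-Sox2D peaks, 0 Halo-Sox2M peaks, 2 Halo-Sox2 peaks and 0 endogenous Sox2 peaks. Inside the gene a Halo-Sox2D peak at 118482472 to 118482480 lay beside a Halo-Sox2 peak at 118482456 to 118482468, with 14 bp between their centres and no base in common. The Halo-Sox2D peak lay 4.29 kb and the Halo-Sox2 peak 4.27 kb downstream of the start. The second Halo-Sox2D peak, at 118440294 to 118440306, lay 37.9 kb below Eomes in the lncRNA gene Platr11, and the second Halo-Sox2 peak, at 118489026 to 118489040, lay 2.90 kb above it in the lncRNA gene Gm33460. A place shared by Halo-Sox2D and Halo-Sox2 was found at 1 of 7 members and at 8.33% of all protein-coding genes, and 10.6% of genes had peaks of these 2 libraries and of neither other one. The missing endogenous Sox2 peak depended on the window: endogenous Sox2 peaks stood at 52.0 kb above Eomes, inside Golga4, and at 71.8, 73.1 and 88.1 kb below it, the nearer pair of these in Platr11.

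Tfap2c, which encodes the AP-2 gamma factor of trophoblast and germ cells, had the most peaks of any member in the endogenous list. Its window (chromosome 2, gene body 172545678 to 172558622) held 2 Halo-Sox2D peaks, 0 Halo-Sox2M peaks, 0 Halo-Sox2 peaks and 4 endogenous Sox2 peaks. Of all protein-coding genes 3.36% had 4 or more endogenous Sox2 peaks. A pair of endogenous Sox2 peaks at 172577560 to 172577576 and 172577579 to 172577593 lay 18.9 kb or slightly more above the gene in the lncRNA gene Gm36038, separated by a gap of 2 bases, and had no fusion peak within 500 bp. Another lay 15.2 kb below the gene, at 172530448 to 172530456. The fourth, at 172516795 to 172516799 and 28.9 kb below the gene, met a Halo-Sox2D peak at 172516629 to 172516648, with 158.5 bp between centres. The other Halo-Sox2D peak lay inside Tfap2c at 172546918 to 172546930. A place shared by Halo-Sox2D and endogenous Sox2 was found at 1 of 7 members and at 9.38% of all protein-coding genes.

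The densest group of fusion peaks near Tfap2c lay just past the 50 kb limit. Between 55.3 and 55.4 kb above the gene there were 3 Halo-Sox2D peaks, at 172613891 to 172613900, 172613912 to 172613917 and 172614038 to 172614047, and 1 Halo-Sox2 peak at 172613919 to 172613937, with 1 base between it and the nearest Halo-Sox2D peak. Tfap2c was the nearest protein-coding gene to this place, so a window of 100 kb counts Halo-Sox2 peaks at 3 of 7 members rather than 2. An endogenous Sox2 peak lay 60.6 kb above the gene. In all, 14 peaks lay 50 to 100 kb from a member. The innermost of them were the endogenous Sox2 peak 52.0 kb from Eomes and a Halo-Sox2D peak 52.3 kb from Cdx2 that lay inside Flt3, while the outermost peak within the limit was the Halo-Sox2M peak at Tead4.

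**Figure D2:**
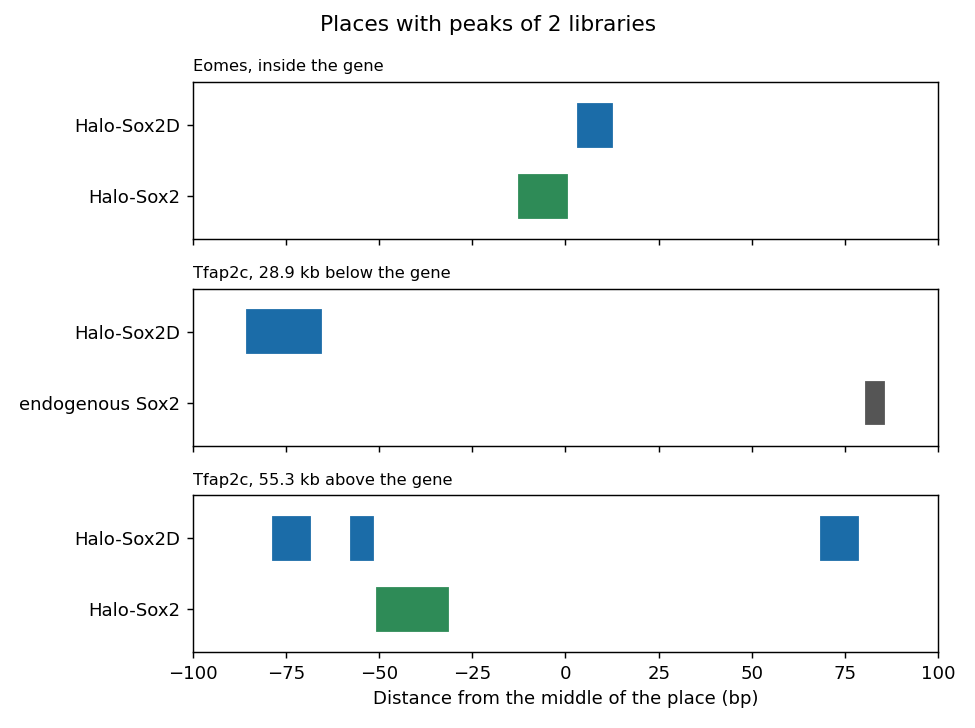
Peaks (blocks, to scale) at the places where 2 libraries met, as distance in bp from the middle of each place. The Eomes peaks have centres 14 bp apart, the Tfap2c peaks below the gene 158.5 bp apart, and the third place lies past the 50 kb limit, 55.3 kb above Tfap2c.

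Elf5, an ETS factor that reinforces Cdx2 and Eomes in trophoblast stem cells, had 0 peaks in all 4 libraries (chromosome 2, 103412098 to 103450989). Of all protein-coding genes 31.1% had none either, so that a lack of peaks was common. The nearest peak lay 117 kb from Elf5 for Halo-Sox2D, 143 kb for Halo-Sox2 and 263 kb for endogenous Sox2, all towards lower coordinates.

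Hand1, the basic helix-loop-helix factor of giant cells and heart, had peaks of Halo-Sox2D and endogenous Sox2 that took turns along the chromosome without meeting. The window (chromosome 11, gene body 57828713 to 57832147) held 2 Halo-Sox2D peaks, 0 Halo-Sox2M peaks, 0 Halo-Sox2 peaks and 2 endogenous Sox2 peaks. The Halo-Sox2D peaks lay 37.6 kb below the gene, at 57791079 to 57791091, and 3.23 kb below it, at 57825473 to 57825492. The endogenous Sox2 peaks lay 14.9 kb below, at 57813805 to 57813814, and 13.7 kb above, at 57845835 to 57845845. The outer Halo-Sox2D peak was nearer to Galnt10 and the lower endogenous Sox2 peak nearer to Sap30l, at 3.57 and 3.19 kb. Hand1 and Tfap2c thus had the same pattern of libraries, Halo-Sox2D and endogenous Sox2 without the other 2, which 8.19% of all protein-coding genes had.

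**Figure D3:**
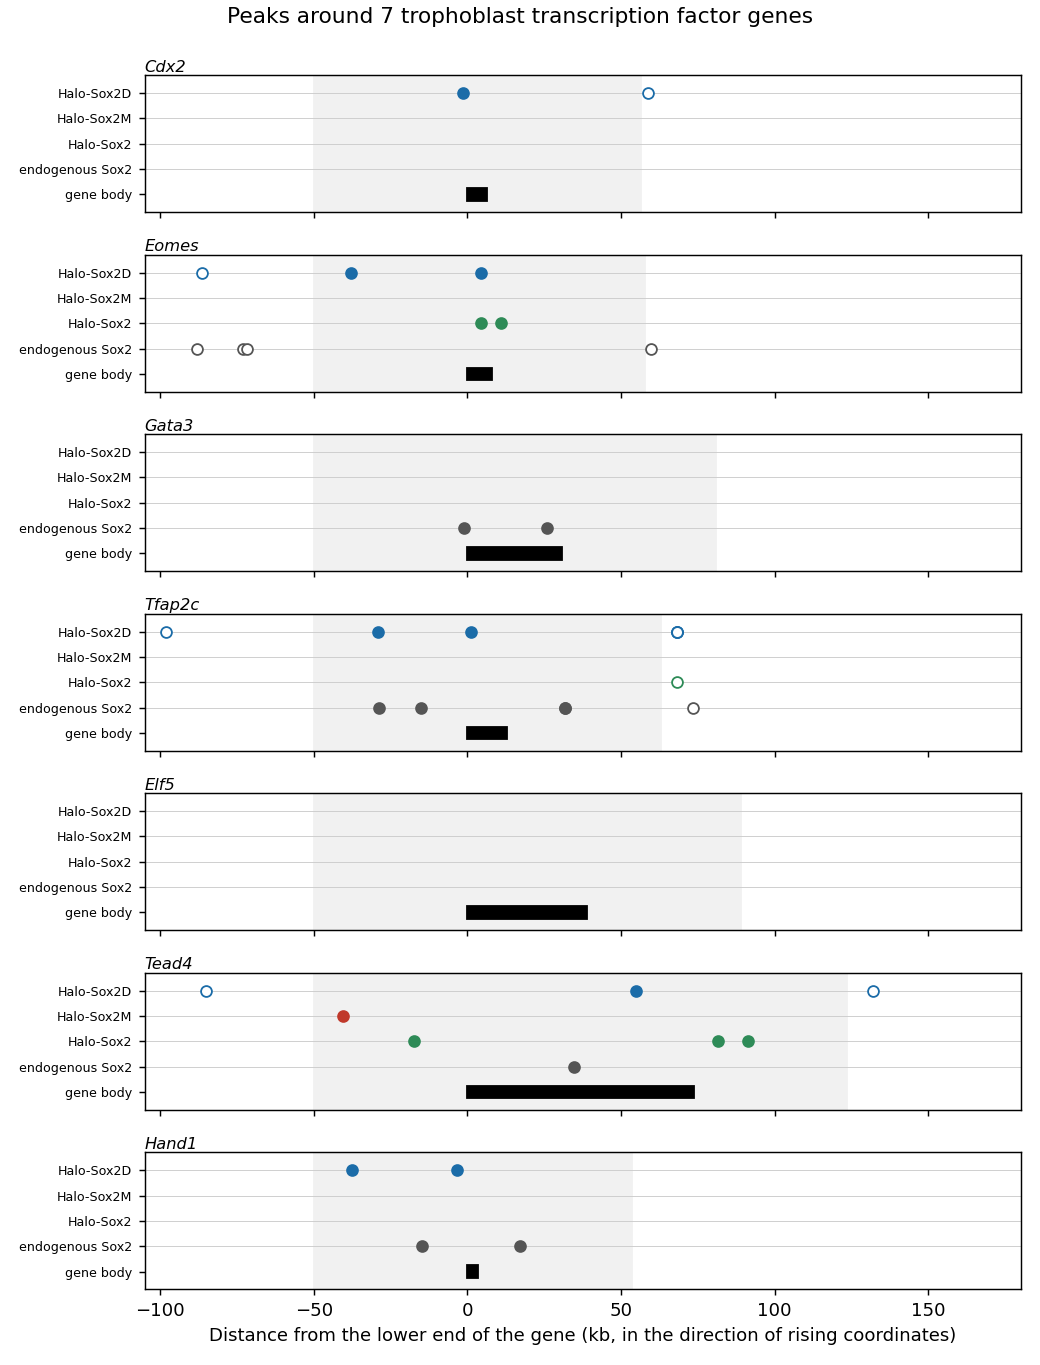
Peak positions by library around each member, in kb from the lower end of the gene (0); the black bar is the gene body, the grey band the body and 50 kb on either side, filled points the 23 counted peaks and open points the 14 peaks 50 to 100 kb away. Filled points of different libraries look aligned at this scale at Eomes and Tfap2c, and at no other member. Their centres are 14 bp apart at Eomes and 158.5 bp apart at Tfap2c.

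Over the 7 genes, Halo-Sox2D had 8 peaks (exact 95% Poisson interval 3.45 to 15.8), Halo-Sox2M had 1 (0.0253 to 5.57), Halo-Sox2 had 5 (1.62 to 11.7) and endogenous Sox2 had 9 (4.12 to 17.1). These intervals cover counting error only and treat peaks as independent, which neighbouring peaks are not. Set against the length of each list, Halo-Sox2D had 0.578 member peaks per 1000 list peaks (0.250 to 1.14) and Halo-Sox2M 0.584 (0.0148 to 3.26), while Halo-Sox2 had 0.762 (0.248 to 1.78) and endogenous Sox2 1.26 (0.575 to 2.39). The intervals of these list-scaled values overlapped between all libraries, and no test of a difference was run. The mean number of peaks per gene was 1.14 at the members and 1.51 over all protein-coding genes in the Halo-Sox2D list, 0.143 and 0.111 in the Halo-Sox2M list, 0.714 and 0.534 in the Halo-Sox2 list, and 1.29 and 0.537 in the endogenous list. The median was 1 at the members and 1 over all protein-coding genes in the Halo-Sox2D list, 0 and 0 in the Halo-Sox2M and Halo-Sox2 lists, and 1 and 0 in the endogenous list.

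By genes with a peak, Halo-Sox2D reached 5 of 7 members (57.7% of all protein-coding genes), and endogenous Sox2 reached 4 of 7 (27.4%). The Halo-Sox2D count was 71.4% of the members, the Halo-Sox2 count 28.6% and the endogenous count 57.1%. However, 7 genes are too few for any of these counts to be read against its background. Among the 14706 protein-coding genes with bodies in the range of the members, 3.43 to 73.7 kb, 62.0% had a Halo-Sox2D peak, 6.65% a Halo-Sox2M peak, 33.5% a Halo-Sox2 peak and 27.8% an endogenous Sox2 peak. A Halo-Sox2D peak without a Halo-Sox2 peak was found at 3 of 7 members, Cdx2, Tfap2c and Hand1, and at 32.6% of all protein-coding genes. A Halo-Sox2 peak without an endogenous Sox2 peak was found at 1 of 7, Eomes, and at 16.9% of all protein-coding genes. The reverse, an endogenous Sox2 peak without a Halo-Sox2 peak, was found at 3 of 7, Gata3, Tfap2c and Hand1, and at 11.9% of all protein-coding genes. Within 50 kb Halo-Sox2 and endogenous Sox2 both had peaks at Tead4 and at no other member, and shared no place there. These groups depend on the window: within 100 kb Eomes had 2 Halo-Sox2 and 4 endogenous Sox2 peaks and Tfap2c had 1 Halo-Sox2 and 5 endogenous Sox2 peaks, so that both libraries were then found at Tead4, Eomes and Tfap2c. Eomes and Tfap2c thereby leave the groups named above. A place shared by these 2 libraries was found at 7.85% of all protein-coding genes, and one shared by Halo-Sox2M and Halo-Sox2, of which the members had 0, at 0.836%.

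The 23 peaks lay in 20 places, of which 18 held peaks of 1 library and 2 of 2 libraries. Among the 16809 places in windows of protein-coding genes, 12.3% held 2 or more libraries. Leaving aside the 4 peaks at the shared places, the distance from a member peak to the nearest peak of another library ran from 6.56 to 193 kb, with a median of 23.2 kb over 19 peaks. Of the 23 peaks, 6 lay inside a member, at 4 of the genes (3 Halo-Sox2D, 1 Halo-Sox2 and 2 endogenous Sox2 peaks), and 12 lay more than 10 kb away. The peaks were 1 to 20 bp wide. No member peak lay in a 100 kb bin with 15 or more peaks of a library, but only 11 such bins were found over the main chromosomes. Of the 23, 20 had the member itself as the nearest protein-coding gene. Shares over all peaks were not computed for these positions, so they are not read as traits of the members.

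Of 17 other trophoblast genes, Halo-Sox2D had peaks at 11 (64.7%, against 57.7% of all protein-coding genes), Halo-Sox2M at 0 (against 6.37%), Halo-Sox2 at 5 (29.4%, against 32.3%) and endogenous Sox2 at 7 (41.2%, against 27.4%). In a list of this size 0 genes with a Halo-Sox2M peak is close to its background. A peak of any library was found at 12 of the 17, and the genes named next are those with the most libraries, then the most peaks. Peg10, an imprinted retrotransposon-derived gene of the placenta, had 2 Halo-Sox2D peaks, 1 Halo-Sox2 peak and 2 endogenous Sox2 peaks. Ascl2, a basic helix-loop-helix factor of the spongiotrophoblast, the homeobox gene Dlx3 and Gata2, a relative of Gata3, had 1 peak each in these 3 libraries. Gcm1, the factor of syncytiotrophoblast formation, had 4 Halo-Sox2D peaks and 1 endogenous Sox2 peak. Of these Halo-Sox2D peaks, those at 78090714 to 78090733 and 78090731 to 78090733 (chromosome 9) overlapped. Ets2, an ETS factor needed in trophoblast, had 1 Halo-Sox2D peak and 3 endogenous Sox2 peaks. At Ascl2 the Halo-Sox2 peak at 143013598 to 143013602 and the endogenous Sox2 peak at 143013744 to 143013747 (chromosome 7) met 44.3 and 44.5 kb above the gene. Ascl2 was the 1 gene of these 17 with a place of 2 or more libraries (5.88%, against 17.8% of all protein-coding genes). At Peg10 both Halo-Sox2D peaks lay inside the gene (chromosome 6, 4749243 to 4749260 and 4749287 to 4749294).

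The Hippo pathway sets the activity of Yap1 and so of Tead4. Of 15 of its genes, Halo-Sox2D had peaks at 13 (86.7%), Halo-Sox2M at 0, Halo-Sox2 at 4 (26.7%) and endogenous Sox2 at 9 (60.0%). Their bodies were longer, with a median of 59.5 kb against 12.9 kb for the members and 17.2 kb for all protein-coding genes. Among protein-coding genes in the length range of the Hippo genes, 63.3% had a Halo-Sox2D peak, 6.34% a Halo-Sox2M peak, 36.6% a Halo-Sox2 peak and 31.5% an endogenous Sox2 peak, so that 0 of 15 for Halo-Sox2M is again close to its background. Tead1, a relative of Tead4, had 4 Halo-Sox2D peaks, 2 Halo-Sox2 peaks and 5 endogenous Sox2 peaks. Tead2, another relative, had 4 Halo-Sox2D peaks, 1 Halo-Sox2 peak and 4 endogenous Sox2 peaks. Mob1b, a cofactor of the Lats kinases, had 3 Halo-Sox2D peaks, 2 Halo-Sox2 peaks and 4 endogenous Sox2 peaks. The Mob1b peaks lay in 3 places, with the Halo-Sox2D peaks together at 88765218 to 88765484 (chromosome 5). Lats2, a kinase that keeps Yap1 out of the nucleus, had 2 Halo-Sox2D peaks, 0 Halo-Sox2 peaks and 5 endogenous Sox2 peaks, the 5 lying together inside the gene (chromosome 14, 57732769 to 57732992). Wwtr1, the relative of Yap1 also called Taz, had 3 Halo-Sox2D peaks, 0 Halo-Sox2 peaks and 1 endogenous Sox2 peak. Over all protein-coding genes, 3.36% had 4 or more endogenous Sox2 peaks. The Hippo genes were named for having the most libraries, then the most peaks, so their counts are not read against that share.

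**Figure D4:**
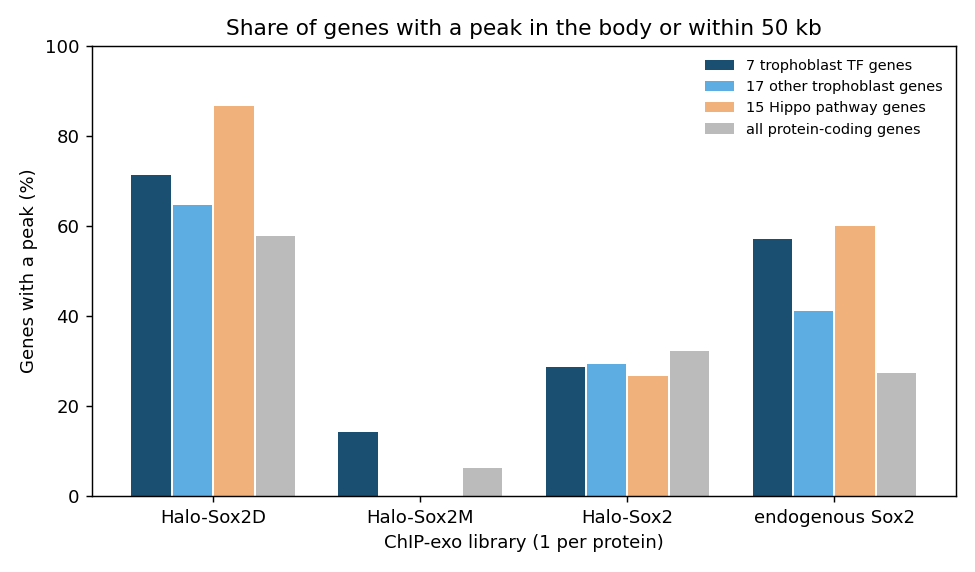
Percent of genes with a peak in the body or within 50 kb, for the 7 members, 17 other trophoblast genes, 15 Hippo pathway genes and all 21887 protein-coding genes, by library. Halo-Sox2 reached 28.6% of members against 32.3% of all genes and endogenous Sox2 57.1% against 27.4%, with 1 library each and few genes in the lists.

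Places of 2 libraries were found at 4 of the 15 Hippo genes, all of them among the genes named for their many libraries and peaks. The share of genes with such a place was 17.8% over all protein-coding genes and 20.2% over those in the length range of the Hippo genes. Inside Tead1 the Halo-Sox2 peak at 112691467 to 112691471 lay between endogenous Sox2 peaks at 112691224 to 112691235 and 112691576 to 112691580 (chromosome 7). Inside Tead2 a Halo-Sox2D peak at 45229675 to 45229692 lay among 3 endogenous Sox2 peaks that spanned 45229652 to 45229712 (chromosome 7). At Mob1b a Halo-Sox2 peak at 88679559 to 88679571 lay among 4 endogenous Sox2 peaks 41.2 to 41.3 kb below the gene (chromosome 5).

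At Nf2, which encodes the Hippo activator merlin, a Halo-Sox2D peak and an endogenous Sox2 peak lay in the promoter window itself. The centre of the Halo-Sox2D peak (4849683 to 4849699) lay 147 bases before the start, and that of the endogenous Sox2 peak (4849703 to 4849711) 163 bases before it. The promoter table lacks windows for some genes. A Halo-Sox2D peak lay 0.2185 kb below the body of Tead1 (chromosome 7, 112679137 to 112679138), in no matched promoter window. Among promoter windows of the members and of the related lists that the table holds, the Nf2 window was the 1 with a peak of any library. It is shown for that reason, at chr11:4849495-4849794 on the minus strand and 5′ to 3′ along the gene, with the bases under the peaks in capitals, first the endogenous Sox2 peak and then the Halo-Sox2D peak in the reading direction.
Nf2: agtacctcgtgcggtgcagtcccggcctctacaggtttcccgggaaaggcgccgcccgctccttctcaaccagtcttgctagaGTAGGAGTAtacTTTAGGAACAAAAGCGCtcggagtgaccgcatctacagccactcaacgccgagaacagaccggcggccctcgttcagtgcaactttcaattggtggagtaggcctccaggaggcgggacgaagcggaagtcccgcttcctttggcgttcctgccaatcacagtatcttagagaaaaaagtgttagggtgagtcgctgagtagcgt
Neither CATTGT nor ATGCAAAT occurred in this window on either strand, and other forms of these motifs were not searched for.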

How the data were processed

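ChIP-exo was applied to D3 mouse embryonic stem cells, with 1 library for each of 4 proteins. Per the labels' protocols, complexes were isolated from sonicated nuclei with antibody or HaloLink resin. Per the submitters' processing notes, Bowtie2 and mm10 were used; no peak caller, threshold or read filter is named. The authors deposited 1 list of peak coordinates per library, with no score, so depth is unknown. Coordinates were read as BED and are printed 1-based.

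Gene bodies and promoter windows were taken from RefSeq tables built on GRCm38.p6. Places were centres joined within 500 bp over all libraries. Counts were made in Python 3.11.15 with numpy 2.4.6, pandas 2.3.3 and scipy 1.17.1, and tested on simulated data. With 1 library per group no test was run. Poisson intervals are 95%.

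The members and lists were chosen with earlier results of these data known. All 7 members were named, with the protein-coding genes nearest to their peaks, and up to 6 genes of each related list, ordered by libraries and then peaks; Taz, Yap1 and annotated lncRNA genes are named as background or position. Windows of 20 and 100 kb, the nearest gene, other joining distances, merged peaks, peaks outside dense bins and 1 bp overlap were tried.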

Additional observations from a re-analysis of the deposited data

How the results depend on the processing

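With a window of 20 kb, peaks and places at the members fell to 5 and 5 for Halo-Sox2D and to 0 and 0 for Halo-Sox2M, which then had a peak at 0 members. The place shared by Halo-Sox2D and endogenous Sox2 was lost (0), leaving 1 place of more than 1 library. With 100 kb, Halo-Sox2D had 16 peaks in 14 places, endogenous Sox2 had 14 in 13, and Halo-Sox2D shared 2 places with Halo-Sox2. With centres within 50 bp, Halo-Sox2D and endogenous Sox2 shared 0 places, and 1 place of more than 1 library was left. By overlap of at least 1 bp, Halo-Sox2D shared 0 places with Halo-Sox2 and 0 with endogenous Sox2. These changes follow from the width of the window or the criterion itself. Of the other alternatives, the nearest gene, peaks outside dense bins, merged peaks and centres within 1000 bp kept each count over the 7 genes within 1.5 times. For single members, 11 of the counts under an alternative moved by over 1.5 times and 101 stayed within that. Many of the 101 were counts of 0 that stayed 0. Leaving out dense bins could change no count, since no member peak lay in such a bin. The 101 are therefore not a measure of robustness. No paired analysis was possible because each group held 1 library, and no replicate could be left out. A stricter peak threshold was not run, since the lists hold no score.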
